A study of Mus musculus with 12 samples.

Results

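Male germ cells of the mouse at day 3 after birth (P3) were compared with those of the fetus at embryonic stage E16.5, gene by gene. A gene was compared where 3 or more of the 6 libraries of these stages had a normalized count of 10 or above, which held for 19929 of the 55487 genes in the deposited table. A normalized count is the number of reads of a gene divided by 1 scaling factor per library. The stages have 3 libraries each, 6 of the 12 in the series, which also holds 3 at each of E13.5 and P0. All samples are labelled as testis, and the germ cells were isolated from mice that carry Mvh-Venus, a fluorescent reporter driven by the germ cell gene Mvh (Ddx4). Titles and source names call every sample wild type, whereas the genotype tag reads Morc1 (-/-) at both E16.5 and P3 and Morc1 (+/-) at E13.5 and P0. The labels thus disagree on genotype, but E16.5 and P3 carry the same tag and the same title wording. Each library goes by its stage and the number 1, 3 or 4 of its column head. The labels list them as separate samples and do not say that they came from separate animals or whether animals were pooled, so p-values measure only the spread between these samples.

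Male germ cells that have reached the fetal testis are called gonocytes or prospermatogonia. They stop dividing before birth, silence transposons and lay down new DNA methylation with the help of piRNAs, which are small RNAs bound by PIWI proteins. In the first days after birth they re-enter the cell cycle, move to the basement membrane of the tubule and give rise to spermatogonia, among them the stem cells, which depend on GDNF from Sertoli cells.

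Morc1, named in the genotype tag, encodes a nuclear ATPase needed for transposon silencing in male germ cells and lies at chr16:48431237-48630900 on the forward strand (GRCm38, GENCODE M21). Its normalized count was 32917, 32890 and 28328 in E16.5 libraries 1, 3 and 4, and 10929, 10584 and 11129 in the P3 libraries. The gene was thus read in quantity in the libraries tagged Morc1 (-/-), and the sources used here do not say whether the counted reads cover the altered part of the gene. Morc1 fell by 1.52 on the log2 scale (SE 0.0728, limma adjusted p 1.29e-11). Log2 fold changes are P3 minus E16.5 of log2(normalized count + 1), which understates the change of genes with few counts.

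Total reads per library were 40946616 to 45641999 at E16.5 and 41490756 to 44898400 at P3. A gene with at least 1 read was found 29291 to 30776 times per library at E16.5 and 25749 to 26285 times at P3. Across the compared genes, log2 values of libraries of the same stage correlated at 0.984 to 0.987, and those of different stages at 0.858 to 0.874. Ddx4, the gene behind the reporter, did not pass the test, with 49639 ± 4831 at E16.5 and 49336 ± 277 at P3 (SD, n = 3); with median-of-ratios factors, which scale all P3 values down, it fell by 0.19 on the log2 scale and passed. Summed over 8 germ cell markers, the normalized count was 246099 to 270842 at E16.5 and 258873 to 283472 at P3. The members moved apart: 4 rose, 3 fell and 1 did not pass, with log2 fold changes from -2.89 to 2.52. The level sum thus does not mean level members. Markers of other testis cells were also read. Their sums were 16263 to 24118 against 12716 to 15691 for 14 Sertoli genes, 2376 to 3152 against 2481 to 2956 for 12 peritubular and stromal genes, 976 to 1246 against 751 to 881 for 8 endothelial genes, and 1271 to 1524 against 1328 to 1570 for 10 macrophage genes. For 7 erythroid genes they were 1796 to 2561 at E16.5 and 298 to 554 at P3. Within the Sertoli, peritubular and stromal, endothelial and macrophage lists, some members rose and others fell. Leydig markers stood out in E16.5 library 4, where Cyp17a1, a steroid-synthesis enzyme, had 2944 against 131 and 339 in libraries 1 and 3. The sum of 9 Leydig genes was 1989 to 9475 at E16.5 and 2282 to 2836 at P3, with Hsd3b6, Insl3 and Lhcgr at 0 in all P3 libraries. The part of these cells in the changes below was not tested. In bulk RNA of this kind, fewer cells of a type and less RNA per cell cannot be told apart.

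Most genes differed between the stages. Of the 19929 genes, 14550 (73.0%) passed an adjusted p of 0.05 with limma, 7521 (37.7%) higher at P3 and 7029 (35.3%) lower. The remaining 5379 did not pass. The 3 libraries of a stage did not overlap those of the other for 15080 genes (75.7%), 39.1% with P3 above and 36.6% with P3 below. The median log2 fold change over all genes was 0.036 and the median absolute value 0.92. A change of at least 2-fold was called for 9097 genes (45.6%), 4376 higher (22.0%) and 4721 lower (23.7%). Larger changes were more often decreases: 1306 genes rose and 2478 fell at least 4-fold, 117 rose and 641 fell at least 16-fold, and 15 rose and 83 fell at least 64-fold. More genes entered the comparison through E16.5 alone than through P3 alone (counts below), and their part in this excess was not tested. With a mean of at least 100 over the 6 libraries required, 6172 genes rose and 4271 fell, counting changes of any size. The balance of directions moved with the scaling of the libraries. Genes higher at P3 made up 51.7% of the changed genes with the deposited factors, 49.5% with TMM factors and 44.7% with median-of-ratios factors. The latter moved the median log2 fold change by -0.18, so small changes in either direction are relative to the deposited scaling. Without E16.5 library 4, which held the most Leydig signal, 14010 genes changed. Among the compared genes, 15958 had a value of at least 10 in all 6 libraries. A further 1218 had it in all 3 E16.5 libraries and no P3 library, and 373 in all 3 P3 libraries and no E16.5 library, and such genes had to differ. Just inside the limit, the 1924 genes with a value of 10 in exactly 3 libraries had a median of 13.6, and just outside it the 1167 genes that reached 10 in exactly 2 had a median of 7.63.

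The genes with the highest fold changes included cell cycle, GDNF-pathway and patterning genes. They were picked for their fold change, from genes that averaged 100 or more at the higher stage and whose stages did not overlap, so their change is a description. Hoxb6, a homeobox gene, had 0, 0.93 and 2.37 at E16.5 and 353, 375 and 400 at P3. Ccnd1, which encodes cyclin D1 and lies at chr7:144929931-144939925 on the reverse strand, had 69.7, 78.1 and 82.3 at E16.5 and 7891, 7140 and 7119 at P3. Spry4, a feedback inhibitor of receptor tyrosine kinase signalling, had 13.4, 28.8 and 41.9 at E16.5 and 2335, 2456 and 2459 at P3. In each of these genes every P3 library was far above every E16.5 library. The rest of the 12 were Hoxb5, Gfra1, Pou3f1, Cd93, Hs3st3b1, Foxc2, Sox18, Sez6 and Dlx4os, with log2 fold changes of 6.21 (Sez6) to 6.90 (Cd93). Cd93 and Sox18 are best known from endothelial cells. Cd93 had 3.82 to 11.9 at E16.5 and 917 to 1023 at P3, while the 8 endothelial markers summed to 751 to 881 at P3 and 976 to 1246 at E16.5. Of these 8, 3 were higher at P3, 2 of them at least 2-fold, and 4 were lower. Dlx4os is an antisense RNA, and the strand setting of the counting is not given in the sources used here.

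The steepest decrease was that of Dppa3, also called Stella, a maternal and germ cell protein that protects DNA methylation in the early embryo. Dppa3, at chr6:122626410-122630272 on the forward strand, had 14062, 14501 and 15467 at E16.5 and 21.3, 11.8 and 20.2 at P3. Its log2 fold change was -9.65 (SE 0.161, limma adjusted p 4.79e-16). Part of its transcript is shared with other genes (17.4% of its 50-base words), so its counts carry some uncertainty. Several of the other steep decreases were genes best known from blood cells or liver. Ighm, the constant region of immunoglobulin mu, had 8063, 8308 and 7274 at E16.5 and 13.6, 22.6 and 30.4 at P3. Abcb11, the bile salt export pump, had 2008, 1676 and 1551 at E16.5 and 4.85, 5.89 and 3.04 at P3. Dntt, the terminal transferase of developing lymphocytes, had 1157, 775 and 800 at E16.5 and 4.85, 5.89 and 2.02 at P3. Clec4f, a lectin known from liver macrophages, had 345, 221 and 212 at E16.5 and at most 1.96 at P3. These genes were picked in the same way, from genes whose stages did not overlap, so their lack of overlap is no separate result. Ighe, Serpina3c, Serpinf2, Slc39a5, Ms4a6d, Akr1c21 and Olfr585 completed the 12, with log2 fold changes from -8.17 (Serpinf2) to -7.44 (Olfr585).

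Markers of the cells in which those genes are best known were then read, from lists chosen after these values were seen. The sum of 5 T lymphocyte genes was 2538 to 3095 at E16.5 and 241 to 278 at P3. Cd2, most of that sum, had 2843, 2335 and 2451 at E16.5 and 188, 124 and 166 at P3. Cd3d, a T cell receptor component, had 157, 126 and 127 at E16.5 and 13.6, 11.8 and 6.07 at P3. Of the other members, Cd3g had 21.9, 9.30 and 29.3 at E16.5 and at most 1.94 at P3, and Cd4 had at most 19.8 at E16.5 and 0 at P3. Thus 4 of the 5 were lower in every P3 library, while Cd3e had 41.9 to 63.9 at E16.5 and 71.9 to 105 at P3 and did not pass (limma adjusted p 0.232). The sum of 6 B lymphocyte genes was 605 to 772 at E16.5 and 354 to 422 at P3. Ms4a1 had up to 177 at E16.5 and 5.06 to 19.6 at P3, Cd79b had 81.1 to 105 and 12.6 to 18.2, and Pax5 had 20.5 to 25.8 and 1.94 to 3.04, whereas Cd79a (262 to 373 and 300.6 to 360) and Vpreb1 overlapped between the stages. The lymphocyte sums were thus lower in every P3 library, and their part in the decreases was not tested. The sum of 7 hepatocyte genes moved the other way, with 2561 to 3696 at E16.5 and 7020 to 9422 at P3. Most of it was Afp, alpha-fetoprotein, with 2411 to 3504 at E16.5 and 6733 to 8985 at P3. The apolipoprotein gene Apoa1 had at most 141 at E16.5 and 238 to 365 at P3, while Alb and Ttr, which liver expresses in abundance, were at or below 4.91 in all 6 libraries. The macrophage marker Adgre1 was at 0 in all P3 libraries, while the sums of the 10 macrophage genes overlapped between the stages. Their members did not stay level. Of 8 compared, 4 were lower and 2 higher at P3, each at least 2-fold. One that rose, Fcer1g, had a mean of 258 at E16.5 and 835 at P3, a large part of the P3 sum.

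Some genes were read at one stage and at or below 3 reads in every library of the other, which was taken as the floor. At E16.5, 53 of the compared genes were at the floor, and 3 of them had a mean of at least 100 at P3. At P3, 486 were at the floor, and 36 of them had a mean of at least 100 at E16.5. A gene at the floor at one stage was compared only because all 3 libraries of the other reached 10. Such genes had to differ, so these counts and the bounds below are a description. Against 3 reads in each library, Hoxb6 was at least 141-fold higher at P3, Hepacam at least 53.3-fold, Bhlha9 at least 34.6-fold, the angiotensin receptor gene Agtr2 at least 27.9-fold, and Cyp26c1, an enzyme that degrades retinoic acid, at least 21.4-fold. In the other direction, Serpinf2 was at least 153-fold lower at P3, Ms4a6d at least 145-fold, Slc39a5 at least 141-fold, Ighe at least 93.0-fold, Clec4f at least 86.5-fold and Klrb1 at least 85.7-fold.

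**Figure D1:**
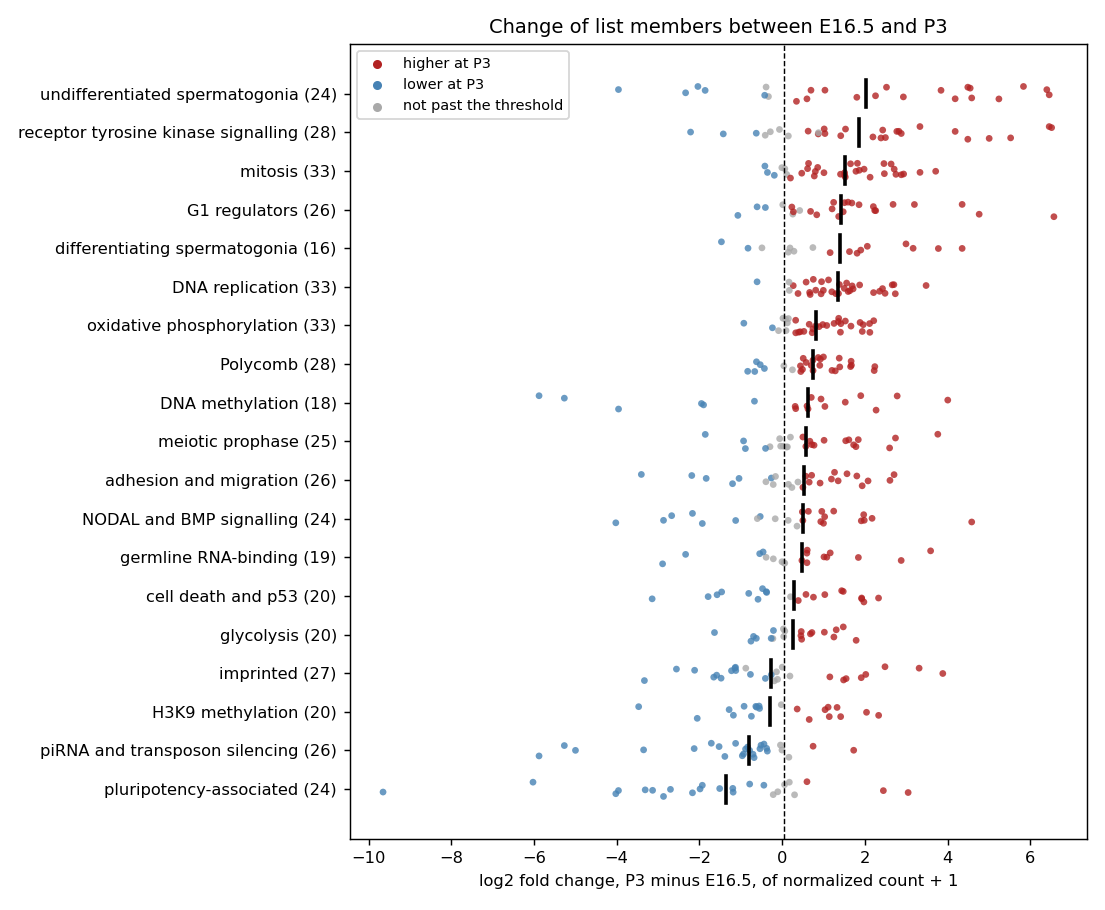
Log2 fold change (P3 minus E16.5, horizontal axis) of each compared member of 19 gene lists, 1 dot per gene, coloured by the limma call; the number of compared members stands in parentheses, the black bar is the list's median and the dashed line the median of all 19929 genes. List medians run from 2.03 for undifferentiated spermatogonia to -1.35 for the pluripotency-associated list.

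Cell cycle genes were higher at P3 in most cases. Counts of this and the following lists and families are read against all compared genes, of which 37.7% rose and 35.3% fell. Among 26 regulators of the G1 phase, 20 rose, 3 fell and 3 did not pass, with a median log2 fold change of 1.42 against 0.036 over all genes. D-type cyclins, which start the G1 phase by activating Cdk4 and Cdk6, all rose. Ccnd2 had 1662, 1567 and 2388 at E16.5 and 39378, 37990 and 35523 at P3, which on the log2 scale is a rise of 4.35 (SE 0.136, limma adjusted p 1.23e-13). Ccnd3 rose by 1.37 and Ccnd1 by 6.57 on the log2 scale. Their partners changed less, with 0.84 for Cdk6 and 0.23 for Cdk4, and Cdk4 did not pass with median-of-ratios factors (0.05). Cyclin E1, which drives entry into S phase with Cdk2, rose too, with Ccne1 at 313, 319 and 287 at E16.5 and 2707, 2762 and 2995 at P3. Among the E2F transcription factors that switch on S phase genes, E2f1 rose by 1.25, E2f2 by 2.21 and E2f3 by 2.68. The repressive members E2f7 and E2f8 rose by 1.59 and 4.76.

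Inhibitors of the cell cycle did not fall as a group. Cdkn1a, which encodes p21, had 276, 294 and 373 at E16.5 and 1589, 1506 and 1336 at P3, a rise of 2.24 on the log2 scale. The retinoblastoma gene Rb1 rose by 1.21 and its relative Rbl1 by 2.26, while Rbl2, the relative linked to quiescence, fell by 1.07. Cdkn2b, which encodes p15, had 736, 600 and 688 at E16.5 and 416, 439 and 471 at P3. Cdkn1c, which encodes p57, fell by 0.41, and 30.7% of its exon length overlaps another gene. Cdkn1b, which encodes p27, had 72.5, 80.9 and 89.4 at E16.5 and 78.5, 117 and 140 at P3 and did not pass (limma adjusted p 0.155). It passed when P3 library 1 was left out (0.66).

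DNA replication genes were nearly all higher. Of 33 compared, 30 rose, 1 fell and 2 did not pass, with a median of 1.36. Cdc6, which loads the replicative helicase onto origins, had 520, 514 and 394 at E16.5 and 5314, 5193 and 5348 at P3. Its log2 fold change was 3.48 (SE 0.149, limma adjusted p 3.73e-12). All 6 subunits of that helicase rose, from 1.12 (Mcm7) to 2.43 (Mcm2), as did Orc1 of the origin recognition complex (2.36) and the licensing inhibitor Gmnn (2.74). Mcm2 had 7233, 8020 and 6956 at E16.5 and 37998, 37896 and 43615 at P3. Tyms, which makes thymidylate, rose by 2.66 on the log2 scale. For Pcna, the sliding clamp, 25.9% of the 50-base words of the transcript occur in other genes, and for Mcm7 32.0%, so their counts are less certain. Pole, the catalytic subunit of the leading-strand polymerase, was the exception, with 3252, 3651 and 3423 at E16.5 and 2231, 2148 and 2404 at P3. The ligase gene Lig1 (log2 fold change 0.17, limma adjusted p 0.0537) and the primase-associated polymerase gene Pola1 (0.17, limma adjusted p 0.0909) did not pass. Both passed when E16.5 library 3 was left out (0.22 each), and Lig1 also without P3 library 4 (0.19).

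Mitotic genes split into a group that rose and a group that did not. Of 33 compared, 27 rose, 3 fell and 3 did not pass, with a median of 1.51. Mki67, the proliferation marker Ki-67, had 128, 219 and 139 at E16.5 and 1889, 1995 and 2374 at P3. Aurkb, a kinase of the chromosomal passenger complex, had 913, 1008 and 996 at E16.5 and 9852, 9976 and 9585 at P3. Cdk1, the kinase that drives mitosis, had 1066, 1039 and 1174 at E16.5 and 7530, 7247 and 6684 at P3. These 3 genes rose by 3.71, 3.33 and 2.71 on the log2 scale, and none overlapped between the stages. Ccna2 (2.88), Plk1 (2.94) and the centromeric histone gene Cenpa (2.75) rose alike. The spindle checkpoint gene Bub1 went the other way, with 12293, 13591 and 10652 at E16.5 and 8676, 9343 and 9221 at P3. The condensin subunit Ncapg fell by 0.36 and Cenpf by 0.19. Cdc20, the activator of the anaphase-promoting complex, had 22336, 19222 and 18376 at E16.5 and 21373, 20852 and 20244 at P3, and its stages overlapped. The kinesin gene Cenpe and the checkpoint gene Mad2l1 did not pass either, with log2 fold changes of -0.01 and 0.11, although Cenpe passed with median-of-ratios factors (-0.19). Counts of Cdc20, Cenpe and Mad2l1 at E16.5 overlapped those at P3, while those of Mki67, Aurkb and Cdk1 were lower in every E16.5 library. Titles and column heads name the stages by age and give no cell cycle state. The data are transcript counts only, with no measure of DNA synthesis or division.

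**Figure D2:**
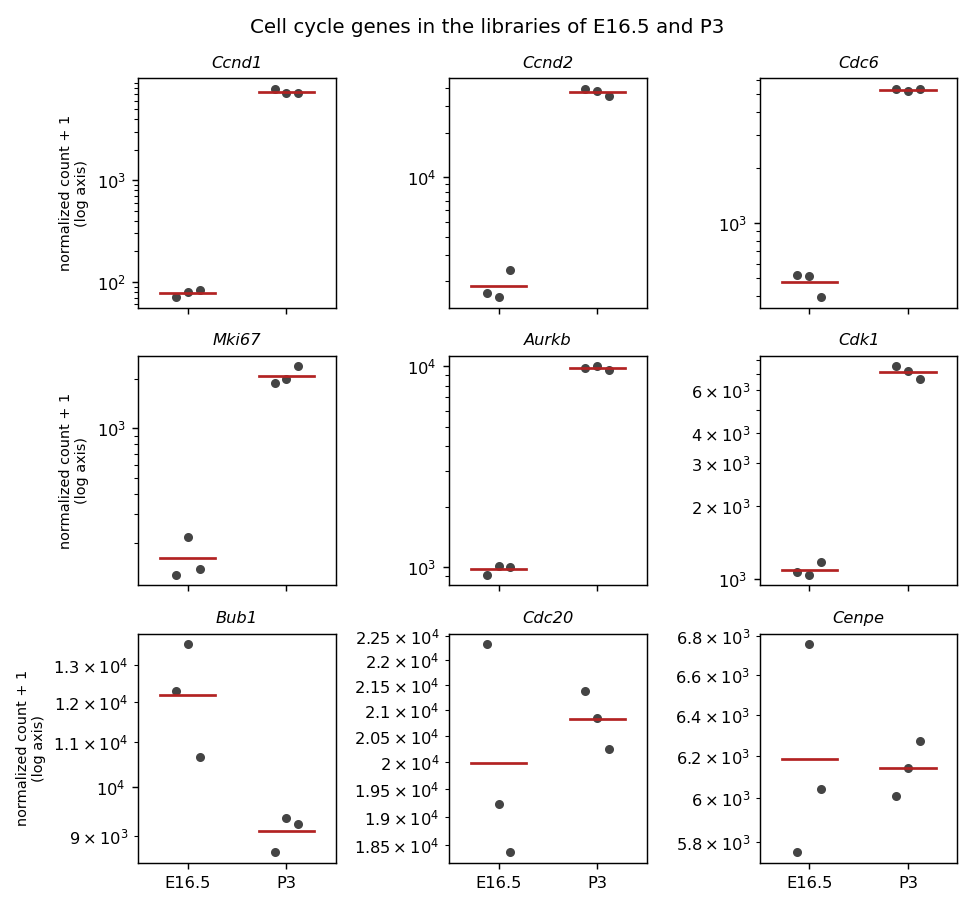
Normalized count + 1 on a log axis (each panel has its own range) of 9 cell cycle genes in the 3 libraries of E16.5 and of P3; dots are libraries and red bars stage means. Ccnd1, Ccnd2, Cdc6, Mki67, Aurkb and Cdk1 are higher in every P3 library, whereas Bub1 is lower and Cdc20 and Cenpe overlap.

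Levels at the other stages place the E16.5 and P3 values of these genes in the series. Cdk1 averaged 1093 at E16.5 and 7154 at P3, with 11548 at E13.5 before them and 797 at P0 in between. For Bub1 the means in order of age were 20233, 12179, 2773 and 9080, and for Cdc20 they were 41654, 19978, 4426 and 20823. On the deposited scaling all 3 genes had their lowest mean at P0, which the direct comparison of E16.5 with P3 passes over.

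The promoters of replication and mitosis genes are known for different short motifs, E2F sites in the former and the cell cycle homology region (CHR) together with CCAAT boxes in the latter. Windows of 300 bases, 250 before and 50 after the annotated start, were taken from RefSeq (GRCm38.p6) for 27025 genes, and 26 of the 33 genes of each list had one. The E2F words searched were TTTCCCGC, TTTGGCGC, TTTCGCGC and TTTGCCGC, the CHR word was TTTGAA and the CCAAT box was CCAAT, all on both strands. Words of different motifs do not contain one another, although E2F words on opposite strands can overlap. Parts of 5 promoters are shown because their genes differ in response: Mcm5 and Mcm6 rose among the replication genes, Mki67 and Cdk1 rose among the mitotic genes, and Cdc20 did not pass. They are the promoters of highest log2 fold change in each list with the motif before the gene's annotated first base, plus 1 gene that did not pass. Each runs 5′ to 3′ on the gene's strand from 150 bases before the RefSeq start, stops before the first base of the gene in GENCODE M21, and has motif words in capitals. Mcm5 lies at chr8:75109359-75109508 (forward), Mcm6 at chr1:128359706-128359855 (reverse), Mki67 at chr7:135716380-135716529 (reverse), Cdk1 at chr10:69352939-69353062 (reverse) and Cdc20 at chr4:118437353-118437493 (reverse).
Mcm5: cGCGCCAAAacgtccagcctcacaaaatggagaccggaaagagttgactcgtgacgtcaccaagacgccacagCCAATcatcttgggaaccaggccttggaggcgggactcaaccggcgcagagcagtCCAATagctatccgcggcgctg
Mcm6: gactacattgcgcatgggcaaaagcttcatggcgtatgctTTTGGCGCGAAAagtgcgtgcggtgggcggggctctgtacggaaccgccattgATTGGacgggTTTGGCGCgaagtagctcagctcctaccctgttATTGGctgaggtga
Mki67: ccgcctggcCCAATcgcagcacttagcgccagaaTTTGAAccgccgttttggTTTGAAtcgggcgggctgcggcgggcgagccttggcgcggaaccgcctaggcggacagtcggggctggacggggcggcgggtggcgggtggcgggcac
Cdk1: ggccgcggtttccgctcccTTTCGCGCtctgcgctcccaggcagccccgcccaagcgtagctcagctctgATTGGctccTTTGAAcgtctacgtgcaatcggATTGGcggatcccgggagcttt
Cdc20: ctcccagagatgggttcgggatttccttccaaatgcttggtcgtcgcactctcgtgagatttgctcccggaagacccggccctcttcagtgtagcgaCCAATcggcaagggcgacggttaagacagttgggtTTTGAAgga

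Mcm6 carried overlapping E2F words on both strands from 110 to 99 bases before its start, and another 47 bases before it. Cdk1 carried 1 E2F word, 2 CHR words in the searched window, of which 1 is shown, and CCAAT boxes on the reverse strand. Cdc20, whose count did not pass the test, also carried a CHR word, 18 bases before its start, with a CCAAT box upstream of it. An E2F word was present in 11 of 26 replication promoters (42.3%), 2 of 26 mitosis promoters (7.69%) and 6 of 19 promoters of G1 regulators (31.6%), against 2.32% of all promoters and 3.62% of those of compared genes. A CHR word was present in 19 of 26 mitosis promoters (73.1%) and 6 of 26 replication promoters, against 12.6% of those of compared genes. CCAAT was found in 20 of 26 mitosis promoters and in 38.5% of those of compared genes.

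Among all genes that rose at least 2-fold and had a window, 5.25% of 2950 carried an E2F word, and among those that fell at least 2-fold 1.65% of 3152. For the CHR word the counts were 398 and 447, or 14.2% of the genes that fell. Within the lists, fold changes of genes with and without a word were set side by side, with no test. Replication genes with an E2F word had a median log2 fold change of 1.36 (11 genes, 0.17 to 3.48), and those without one 1.20 (15 genes, 0.17 to 2.66). Mitosis genes with a CHR word had a median of 1.41 (19 genes, -0.36 to 3.71), and those without one 0.86 (7 genes, -0.42 to 2.47). Mitosis genes with a CCAAT box had a median of 1.46 (20 genes, -0.42 to 3.71), and those without one 0.67 (6 genes, 0.11 to 2.47). The ranges overlapped in each of these 3 comparisons, and genes that fell were found with and without the CHR word. A match of letters is a description of the sequence and says nothing on whether a factor binds there.

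**Figure D3:**
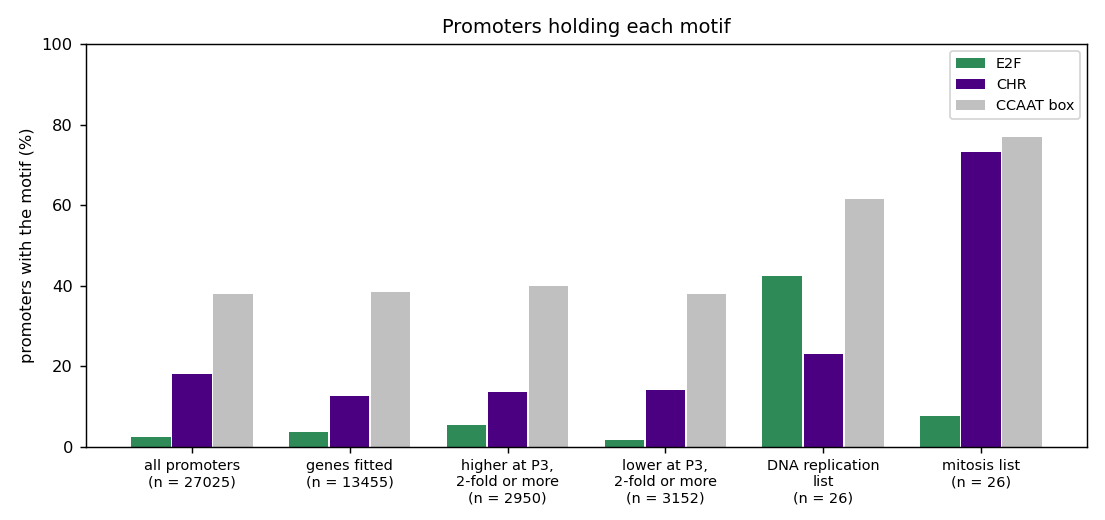
Percentage of promoter windows (300 bases) that hold an E2F, CHR or CCAAT word, for all RefSeq promoters, compared genes, genes changed at least 2-fold in each direction, and the replication and mitosis lists. E2F words are most frequent in the replication list (42.3%) and CHR words in the mitosis list (73.1%).

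Genes of undifferentiated spermatogonia, the population that holds the stem cells, moved strongly in both directions. Of 24 compared, 17 rose, 5 fell and 2 did not pass, and their median of 2.03 was the highest of the lists. Gfra1, the GDNF receptor that marks the stem cell pool, lies at chr19:58235604-58455909 on the reverse strand. It had 180, 183 and 154 at E16.5 and 14102, 14832 and 16872 at P3, a rise of 6.46 on the log2 scale (SE 0.161, limma adjusted p 1.50e-14). Ret, the tyrosine kinase that signals for it, had 582, 704 and 534 at E16.5 and 12314, 12665 and 16008 at P3. Genes known to respond to GDNF in these cells rose as well, among them Etv5 (4.18), Pou3f1 (6.40), Lhx1 (5.24), Egr2 (3.84), Egr3 (5.84), Id4 (4.58) and Bcl6b (2.52). For Etv5, 26.3% of the 50-base words of the transcript occur in other genes. Zbtb16, the PLZF repressor required for stem cell maintenance, had 91.6, 89.3 and 93.4 at E16.5 and 2113, 2202 and 2164 at P3. Foxo1, required for stem cell maintenance, rose by 0.70.

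Members of the same list that fell were Utf1, Nanos2, Tspan8, Rhox10 and Taf4b. Utf1, a chromatin-associated factor shared with pluripotent cells, had 21130, 18925 and 20264 at E16.5 and 1400, 1206 and 1274 at P3. Nanos2, an RNA-binding repressor that keeps male germ cells out of meiosis and later marks stem cells, had 428, 596 and 630 at E16.5 and 113, 123 and 88.1 at P3. Its exons overlap another gene over 49.0% of their length. At P0 it averaged 10.2, so its P3 values lay above those at birth and below those at E16.5. Nanos3 did not pass, with 1252 to 1463 at E16.5 and 950 to 1097 at P3 (limma adjusted p 0.0854), although its libraries did not overlap, and it passed with edgeR and DESeq2 (-0.39 with each).

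Receptor tyrosine kinase signalling, the route through which GDNF and FGF act, had 20 of 28 compared genes higher, 3 lower and 5 not past the threshold, with a median of 1.86. Several members belong also to the spermatogonial list. The transcription factor Etv4 had 46.8, 52.1 and 39.6 at E16.5 and 2140, 2116 and 2218 at P3. Negative feedback genes of the pathway rose in parallel. Dusp6, an ERK phosphatase, had 315, 424 and 686 at E16.5 and 14669, 14339 and 14575 at P3. Spry4 rose by 6.52, Spry1 by 2.88, Dusp4 by 3.33, Spred1 by 2.43 and Spred2 by 2.82, while Spry2 (0.88) passed only when E16.5 library 4 was left out (1.57). Among receptors, Fgfr3 (1.04), Erbb2 (2.50) and Erbb3 (1.42) rose, and Fgfr1 (-0.07) and Kit (0.15) did not pass. Pdgfrb, which stromal and vascular-wall cells also express, fell from 578, 453 and 397 to 71.7, 112 and 127. The summed peritubular and stromal markers were 2376 to 3152 at E16.5 and 2481 to 2956 at P3, but the members were not level. Of 11 compared, 4 rose, 2 fell and 5 did not pass, with log2 fold changes from -2.59 to 2.07. The part of such cells in the fall of Pdgfrb was not tested.

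Genes of differentiating spermatogonia were mixed. Of 16 compared, 9 rose, 2 fell and 5 did not pass, with a median of 1.39. Stra8, a target of retinoic acid, had 435, 441 and 433 at E16.5 and 4296, 3858 and 3656 at P3. Sohlh2, a spermatogonial transcription factor, had 699, 725 and 767 at E16.5 and 10124, 10170 and 9776 at P3, a rise of 3.78 (SE 0.0654, limma adjusted p 4.79e-16). Its partner Sohlh1 did not follow, with 13937, 10549 and 10903 at E16.5 and 8868, 8284 and 7906 at P3 (limma adjusted p 0.0626). Sohlh1 passed as lower at P3 with edgeR and DESeq2 (-0.50 with edgeR), and with the number of the column head as a replicate block (-0.49, limma adjusted p 0.0464). It also passed with TMM factors (-0.54), median-of-ratios factors (-0.67), equal library totals (-0.67), a pseudocount of 10, a mean of at least 100, and only the 6 libraries. Its stages did not overlap, so the call depended on the setting. Dmrt1, which controls entry into meiosis, rose by 2.99. Kit, the receptor that marks differentiating spermatogonia, had 2954, 2758 and 2700 at E16.5 and 2588, 3198 and 3632 at P3, and its stages overlapped. Kit passed when P3 library 1 was left out (0.28). Of the retinoic acid receptors, Rarg fell by 1.47, and Rara (0.19) and Rarb (0.29) did not pass.

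Among 25 genes of meiotic prophase, 14 rose, 4 fell and 7 did not pass, with a median of 0.57. Components of the synaptonemal complex rose, with Sycp1 at 1.61, Sycp2 at 0.72, Syce2 at 2.60 and Syce3 at 3.76. Syce3 had 53.4, 37.2 and 53.8 at E16.5 and 718, 670 and 592 at P3. Sycp3 rose by 0.50, and 52.2% of its exon length overlaps another gene. The recombinase gene Dmc1 rose by 1.78. Spo11, which makes the DNA breaks of meiosis, fell by 1.86, from 878, 811 and 746 to 173, 280 and 227. Its mean was highest at P0 (1183). The meiotic cohesin genes Rec8 and Stag3 fell by 0.89 and 0.93.

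**Figure D4:**
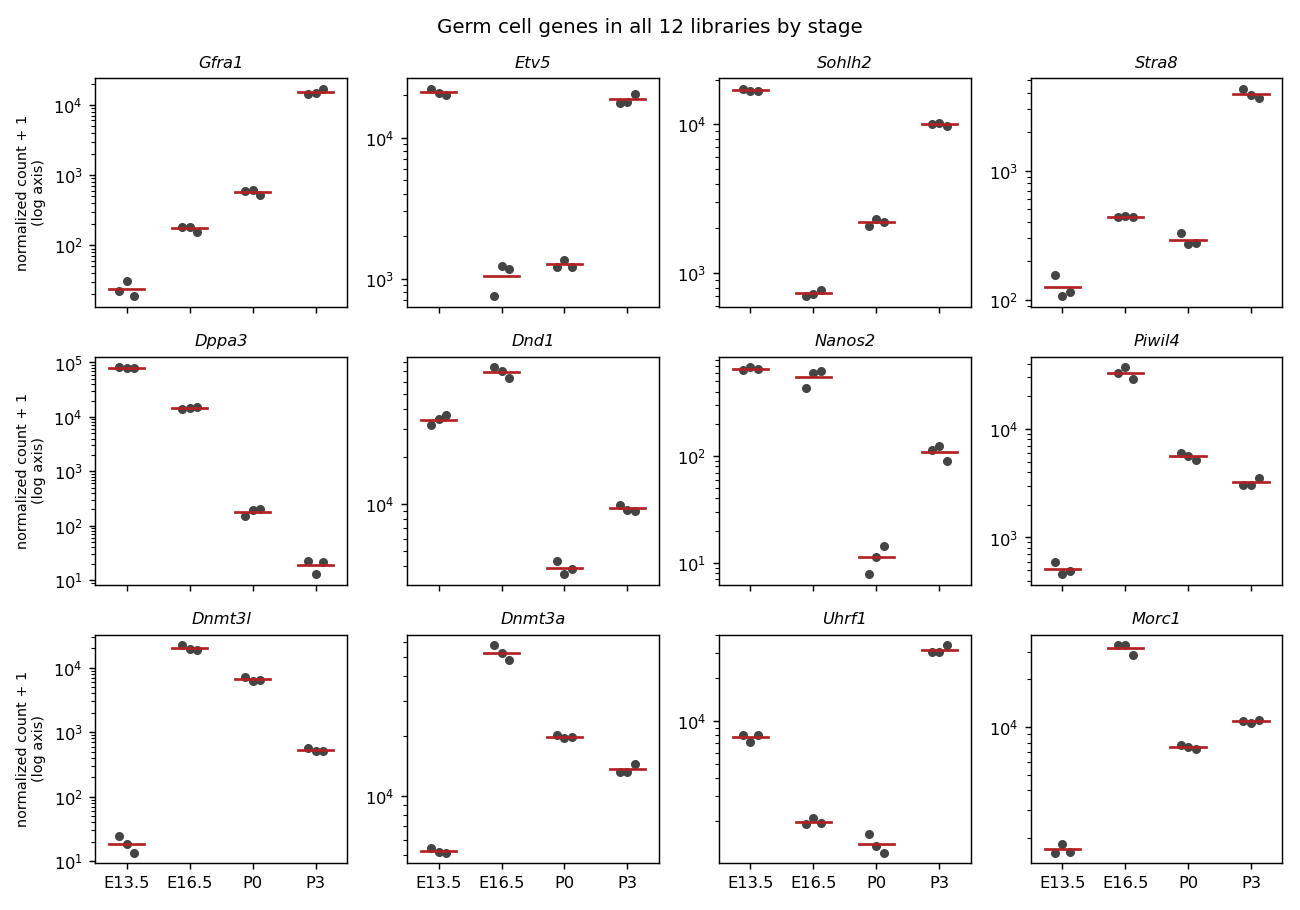
Normalized count + 1 on a log axis (each panel has its own range) of 12 germ cell genes in all 12 libraries by stage; dots are libraries and red bars stage means. Gfra1, Etv5, Sohlh2, Stra8 and Uhrf1 are higher at P3 than at E16.5, and Dppa3, Dnd1, Nanos2, Piwil4, Dnmt3l, Dnmt3a and Morc1 are lower.

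Pluripotency-associated genes, which gonocytes share with embryonic stem cells, were lower at P3. Of 24 compared, 16 fell, 3 rose and 5 did not pass, with a median of -1.35. Nanog had 182, 293 and 239 at E16.5 and 1.94, 2.95 and 3.04 at P3. Pou5f1, which encodes Oct4, had 6790, 7197 and 7254 at E16.5 and 1853, 1754 and 1755 at P3, a fall of 1.99 on the log2 scale (SE 0.0638, limma adjusted p 1.59e-13). Sox2 had 262, 355 and 353 at E16.5 and 252, 292 and 285 at P3 and did not pass (limma adjusted p 0.214), except with median-of-ratios factors (-0.40), with equal library totals (-0.39) or without E16.5 library 1 (-0.36). Prdm14 fell by 3.31, Dppa4 by 3.13 and Fbxo15 by 2.70. The 3 members that rose were Tcl1 (3.05), Tbx3 (2.45) and Lin28a (0.60). Tcl1, a coactivator of AKT kinase, had 1420, 1723 and 1702 at E16.5 and 14086, 13019 and 12850 at P3.

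Among NODAL and BMP signalling genes, Nodal itself, its co-receptor gene Tdgf1 and the inhibitors Lefty1 and Lefty2 fell, and some of these are in the pluripotency list too. Of 24 compared genes, 13 rose, 7 fell and 4 did not pass, with a median of 0.49. Nodal had 194, 341 and 217 at E16.5 and 48.5, 59.9 and 86.0 at P3. The NODAL co-receptor gene Tdgf1 fell by 2.87. Of the inhibitors, Lefty1 fell by 4.02 and Lefty2 fell by 2.17. At E13.5 these genes had been higher still, with a mean of 26419 for Lefty1 against 185 at E16.5. Smad1, which carries BMP signals (2.17), Smad3, which carries NODAL, activin and TGF-beta signals (1.99), the receptor gene Bmpr1a (1.91) and the inhibitor Smad7 (1.97) rose. Smad1 had 714, 839 and 753 at E16.5 and 3379, 3470 and 3548 at P3.

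Among 19 germline RNA-binding proteins, 10 rose, 4 fell and 5 did not pass, with a median of 0.48. Dazl, a translational regulator, had 33424, 39372 and 35063 at E16.5 and 135409, 130669 and 120568 at P3. Dnd1, the partner of Nanos2, moved in the other direction, from 74414, 70585 and 63749 to 9874, 9183 and 9040, a fall of 2.89 (SE 0.0835, limma adjusted p 5.81e-14). Within the Nanos family Nanos1 rose by 3.59 while Nanos2 fell. Igf2bp1 rose by 2.88.

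Genes of the piRNA pathway and transposon silencing were mostly lower. Of 26 compared genes, 21 fell, 2 rose and 3 did not pass, with a median of -0.81. Piwil4, the PIWI protein that carries piRNAs into the nucleus, had 32797, 37200 and 28776 at E16.5 and 3073, 3068 and 3506 at P3. Spocd1, which links Piwil4 to DNA methylation, had 25530, 26257 and 22267 at E16.5 and 762, 679 and 882 at P3. Dnmt3l, the cofactor of new methylation, fell by 5.27 and the enzyme gene Dnmt3c fell by 5.88, although 23.9% of the words of Dnmt3c occur in other genes. Several cytoplasmic piRNA genes fell less than these, with Piwil2 at 34744, 38108 and 31938 at E16.5 and 18289, 18585 and 21918 at P3. Mael fell by 0.93, Tdrd1 by 0.96 and Mov10l1 by 0.68, whereas Tdrd5 fell by 1.71. Tdrd6 (1.73) and Tdrd12 (0.75) rose, and Gtsf1 (-0.04) did not pass.

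All 18 compared genes of DNA methylation changed, where 73.0% of all compared genes did. Of the 18, 12 rose (66.7%, against 37.7% of all compared genes) and 6 fell (33.3%, close to the 35.3% of all). The falling members were Dnmt3c, Dnmt3l and Dnmt3a, which establish methylation, and Tet1, Tet2 and Tet3, which oxidize it. Dnmt3a had 57584, 52667 and 48163 at E16.5 and 13160, 13189 and 14540 at P3. Tet2 fell by 3.96 on the log2 scale, from 198, 351 and 343 to 14.5, 17.7 and 21.3. The rising members included Dnmt1 and Uhrf1, which copy methylation at replication. Uhrf1 had 1898, 2075 and 1915 at E16.5 and 30251, 30377 and 34050 at P3, a rise of 4.01 (SE 0.0938, limma adjusted p 8.51e-15), with 18.9% of its words found in other genes. Dnmt1 had 3605, 5001 and 4256 at E16.5 and 11538, 11585 and 13734 at P3. The remodeller gene Hells (2.78) and its partner Cdca7 (2.27) rose with them. Dnmt3b was the establishing enzyme that rose (1.90), with 10.5% of its words shared.

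Of 20 compared genes of H3K9 methylation, a mark of silent chromatin, 9 rose, 10 fell and 1 did not pass, with a median of -0.28. The demethylase gene Kdm4a had 3324, 3070 and 2845 at E16.5 and 296, 335 and 214 at P3. Ehmt2, which encodes the methyltransferase G9a, had 19470, 20652 and 18706 at E16.5 and 4572, 4416 and 5208 at P3, while its partner Ehmt1 rose by 1.14. The methyltransferases Suv39h1 (1.42), Suv39h2 (1.11) and Setdb2 (1.33) rose. The HP1 genes rose, with Cbx1 at 2.04, Cbx3 at 2.33 and Cbx5 at 0.65, and 15.8% of the words of Cbx3 are shared.

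Polycomb genes, whose products deposit or read H3K27 methylation and H2A ubiquitin, were mostly higher. Of 28 compared, 21 rose, 5 fell and 2 did not pass, with a median of 0.75. Within PRC2 the catalytic subunits moved apart. Ezh2 had 1430, 1763 and 1702 at E16.5 and 2592, 2445 and 2266 at P3, whereas Ezh1, known from non-dividing cells, had 13039, 13590 and 11145 at E16.5 and 7634, 7840 and 9069 at P3. Suz12 rose by 1.68 and Eed fell by 0.83. In PRC1, Rnf2 (1.38) and Bmi1 (1.39) rose, and Ring1 fell by 0.53.

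Adhesion and migration genes had 14 of 26 higher, 6 lower and 6 not past the threshold, with a median of 0.54. Surface proteins used to isolate spermatogonia were among those that rose, with Itga6 at 1.57, Cdh1 at 1.81, Epcam at 1.35 and Cd9 at 1.94. Itga6 had 1044, 1325 and 1447 at E16.5 and 3449, 3777 and 4014 at P3. The chemokine receptor gene Cxcr4 rose by 1.19. Cntn6, a neural adhesion protein, fell by 3.41, from 1494, 1564 and 1163 to 143, 98.2 and 159.

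Oxidative phosphorylation genes encoded in the nucleus were mostly higher. Of 33 compared, 25 rose, 2 fell and 6 did not pass, with a median of 0.81. Among members of complex I, Ndufv2 rose by 1.88 and Ndufa1 by 2.11. Uqcrc1 of complex III went the other way, with 96183, 73676 and 72385 at E16.5 and 43503, 41338 and 41540 at P3. The 37 mitochondrial-genome genes were at 0 in every library and thus give no value. Glycolysis was mixed, with 10 of 20 higher, 6 lower and 4 not past the threshold (median 0.26). Hk2 rose by 1.02, Pfkp by 1.31 and Slc16a1 by 1.79, while the muscle-type phosphofructokinase gene Pfkm fell by 1.64. Counts of Gapdh, Eno1 and Pkm are uncertain because 50.3%, 48.7% and 32.4% of their words occur elsewhere. Ribosomal protein genes had 56 of 83 higher and 10 lower, with a median of 0.57. The stages did not overlap for 53 of the 83, against 75.7% of all compared genes. As a share of all reads these genes overlapped between the stages, with 1.66% to 2.18% at E16.5 and 1.87% to 2.31% at P3.

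Of 27 compared imprinted genes, which are expressed from 1 parental allele in most tissues, 8 rose, 13 fell and 6 did not pass, with a median of -0.26. The share that changed, 77.8%, was close to the 73.0% of all compared genes. Mest rose by 3.31, from 603, 601 and 670 to 6162, 6029 and 6433. H19 had 236, 316 and 325 at E16.5 and 847, 819 and 879 at P3. Grb10 fell by 2.12 and Sgce by 2.56. In the cluster of maternally expressed RNAs on chromosome 12, Meg3 fell by 0.77, Rian by 1.12 and Mirg by 3.33. The counts do not separate the alleles.

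Cell death genes were balanced, with 10 of 20 higher, 9 lower and 1 not past the threshold (median 0.30). Trp53, which encodes p53, had 951, 1179 and 1085 at E16.5 and 4160, 3955 and 4058 at P3. The death-promoting genes Bcl2l11 (2.33), Bax (1.44) and Pmaip1 (1.92) rose. Among protective genes, Mcl1 rose by 1.03 and Bcl2l1, which encodes Bcl-xL, fell from 12099, 11178 and 10380 to 6200, 6205 and 6799. The p53 relatives Trp63 and Trp73 fell by 3.14 and 1.57.

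Of 23 compared Hox genes, the patterning genes of the body axis, 6 rose and 9 fell (26.1% and 39.1%, against 37.7% and 35.3% of all compared genes). Of 8 compared genes of the Hoxb cluster on chromosome 11, 6 rose and none fell. In the Hoxa cluster 5 of 6 fell. In Hoxc 2 of 4 fell and in Hoxd 2 of 5, small numbers that are read against the 35.3% of all compared genes. None of the genes in these 3 clusters rose. Hoxb5, at chr11:96303336-96306121 on the forward strand, had 3.82, 1.86 and 3.17 at E16.5 and 454, 386 and 479 at P3. Its neighbour Hoxb6, at chr11:96292476-96301569, was the gene of highest fold change. Hoxb7 had 428, 394 and 365 at E16.5 and 889, 774 and 746 at P3, so that part of the cluster was already read at E16.5. Hoxb3, Hoxb4 and Hoxb9 rose by 2.03, 1.37 and 2.67 but had at most 58.7 in any library, and Hoxb3 overlaps another gene over 52.9% of its exon length. Hoxb4 did not pass when E16.5 library 1 was left out (0.88). In the other direction, Hoxa7 had 434, 338 and 345 at E16.5 and 24.2, 9.82 and 29.4 at P3. Hoxa3 fell by 3.69, Hoxd1 by 3.11 and Hoxc9 by 2.75, and Hoxa3 overlaps another gene over 27.1% of its exon length.

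**Figure D5:**
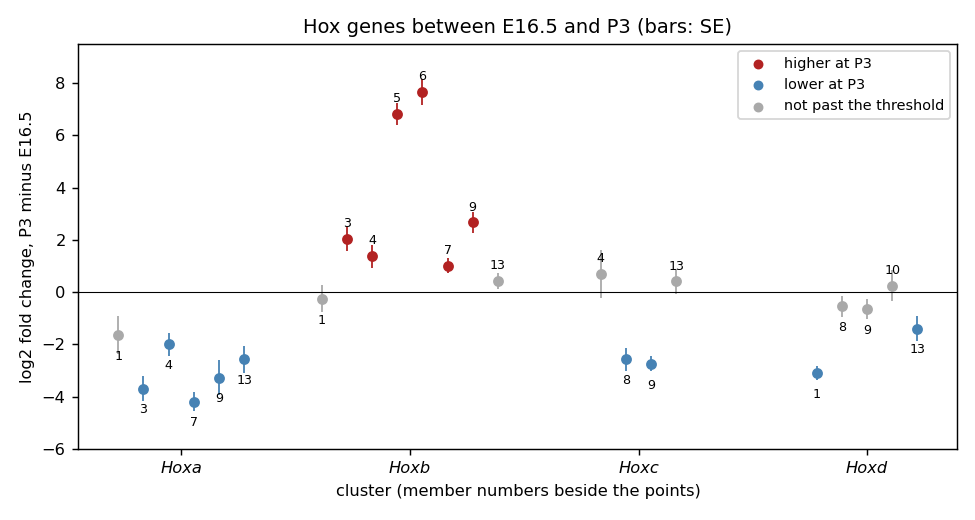
Log2 fold change (P3 minus E16.5, vertical axis, bars are SE) of the 23 compared Hox genes by cluster, with the member number beside each point and colours for the limma call. All points above 1 belong to Hoxb, while the genes that passed the test in Hoxa, Hoxc and Hoxd lie below 0.

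Other families and gene types were counted in the same way. Of 11 compared clustered protocadherins, neural adhesion proteins whose genes share exons, 9 fell (81.8%) and none rose, and between 22.7% and 51.5% of their words are shared. Of 20 compared Rhox homeobox genes on the X chromosome, 9 rose and 7 fell. Rhox13 rose by 1.81 and Rhox10 and Rhox5 fell by 1.86 and 1.79, with none of their words shared, whereas several Rhox2 and Rhox4 copies are nearly identical. Zinc finger genes named Zfp had 138 of 325 lower (42.5%, against 35.3% of all compared genes) and 93 higher (28.6% against 37.7%), and the share that changed was 71.1% against 73.0%. Long intergenic RNAs had 403 of 931 lower (43.3%) and 223 higher (24.0%), with a median of -0.51, whereas lncRNAs from bidirectional promoters had 50 of 112 higher (44.6%) and 15 lower (13.4%). By chromosome, leaving out Y with 5 compared genes, the share higher ran from 31.0% (chromosome 7) to 44.1% (chromosome 11), against 37.7% of all compared genes. X, with 42.9% of 784 genes higher, was near chromosome 2 (43.0%). On chromosome 7, 648 of 1557 genes fell (41.6%, against 35.3% of all compared genes) and 483 rose. Chromosome 13 was alike, with 41.5% lower.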

How the data were processed

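RNA of 12 samples of isolated male germ cells was sequenced, and the 6 of E16.5 and P3 are compared here. The authors deposited 1 table whose signal is a read count per gene divided by a size factor per library. Per the labels' protocols, complementary DNA was amplified with SMART-seq v4 before TruSeq mRNA library preparation. Per the submitters' processing notes, bcl2fastq 2.20, cutadapt 1.18, HISAT2 2.1.0, featureCounts 1.5.2, DESeq2 1.26.0 and the builds mm10 and GRCm38 were named. The annotation release, strand setting and treatment of multiply matching reads are not given in the sources used here. In every library the values were whole multiples of the smallest, within a tolerance of 0.001, so whole reads were recovered.

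Columns were assigned to stages from their heads. Symbols matched 55141 of 55487 identifiers (99.4%). The test was that of limma 3.58.1 on log2(normalized count + 1), with lmFit and a trended eBayes (R 4.3.3). All 12 libraries in 4 stages shared 1 estimate of the spread (8 residual degrees of freedom), and Benjamini-Hochberg adjustment ran over the 19929 genes. Named genes were Morc1, list members, the 12 highest and 12 lowest fold changes (mean of at least 100, no overlap, no clone name), up to 6 genes per direction at the floor, and families; some list members are not reported here. The genes compared, the lists and the tests were chosen with earlier results of these data known. Shared words are 50-base stretches of GENCODE M21 transcripts that occur in another gene, and exon overlap is on either strand. Alternatives used other scalings, pseudocounts, filters and fits, a block on the column number (added after seeing the data), edgeR 4.0.16 and DESeq2 1.42.0 on the recovered reads, and leaving out each library. On simulated data for this comparison (19929 genes, 200 changed), limma recovered 96% of 4-fold and 65% of 2-fold changes and called 4 unchanged genes. Summaries and figures were made in Python 3.11.15 (pandas 2.3.3, numpy 2.4.6, matplotlib 3.10.9). Amplified reads carry no molecular identifiers, so floors cover counting error only.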

Additional observations from a re-analysis of the deposited data

How the results depend on the processing

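The number of changed genes (14550) was 10443 to 17386 over 18 other settings, and edgeR called 14416 of the same genes in the same direction. Leaving out 1 library gave 13852 to 14045 changed genes, 8834 to 9011 changed at least 2-fold, and a share of higher genes of 51.6% to 52.2%. That share turned to a majority of decreases with TMM factors (49.5%), median-of-ratios factors (44.7%), equal library totals (44.8%) and no filter on low values (45.5%). It was 52.6% with a pseudocount of 0.1, 59.1% with a mean of at least 100 and 51.4% with edgeR, and the mean of at least 100 left 5317 genes changed at least 2-fold because fewer genes were tested. The direction of the balance thus depends on the scaling and on the filter on low values. No gene called both with the deposited factors and under another scaling had the opposite direction. Another scaling moves all genes by about the same small amount, at the median by -0.18 with median-of-ratios factors and by less with the others. That result could thus hardly have come out otherwise and is no support for the calls. Of 1026 recomputed counts and medians of the lists, 951 stayed within the limits set for them, 75 moved further and none of the medians changed sign. The planned block on the replicate number of the titles was not run, because column heads are numbered 1, 3 and 4 and titles 1, 2 and 3. A replicate block on the number of the column head, chosen after seeing the data, gave 14519 changed genes, 14407 of them also called without it, 9089 changed at least 2-fold, and 51.7% of the changed genes higher. The numbers do not show a pairing: deviations from the stage means in same-numbered libraries correlated across genes at 0.048, -0.018 and -0.029 for numbers 1, 3 and 4, and not every library correlated best with its own number. Nothing in the labels says that a number marks a shared animal or batch. Depth limits mainly the genes near 10 normalized counts. With 3 libraries per stage a 2-fold change was recovered less often than a 4-fold one in the simulated data. Those data held 200 changed genes and known scaling factors, whereas 14550 genes changed here. Their recovery and false calls therefore need not hold for the real libraries.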
